A study of Mus musculus with 12 samples.

Results

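The results concern 5 mouse genes, Emp1, Aqp9, Bhlhe40, Ahnak and Saa3, in blood cells with or without the transcription factors STAT5A and STAT5B. They were selected on measured values: each had a rise on treatment that was among the largest in these arrays. All probe sets annotated to a member were taken, which gave 10 of the 45101 probe sets of the array, with 4 for Ahnak, 2 each for Emp1 and Aqp9, and 1 each for Bhlhe40 and Saa3. A probe set is a group of short probes for 1 transcript, and its intensity is the deposited MAS5 signal on a linear scale. Of the 10, 7 passed a filter on dim values (above 70.5 units on at least 3 of the 12 arrays), with at least 1 per gene, and 3 of the Ahnak probe sets did not. Averaged over both genotypes, the change of Emp1 was number 2 from the top among 11815 genes, Aqp9 was number 8, Saa3 number 9, Bhlhe40 number 13 and Ahnak number 30.

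Messenger RNA was measured on 12 single-colour Affymetrix arrays in 4 groups of 3: treated cells of Stat5a and Stat5b knockout mice, treated cells of control mice, untreated knockout cells and untreated control cells. In the knockout mice both genes were missing in blood cells. No label names the Cre line, the strain, the age or sex of the mice, or the number of mice behind an array. The treatment field says only with or without "GMP", and the series is titled for granulopoiesis driven by GM-CSF. Titles of untreated arrays on dates 1 and 3 carry GMP too, beside a minus sign, so there it marks no treatment and may name the cells. The word treatment is therefore used here without an agent, dose or time. Sample titles place the arrays on 3 dates, each with 1 array of every group. On date 2 the knockout treated array has a number tag in its title that differs from the tag shared by the other arrays of that date, with no explanation in the labels, so its pairing with them rests on the date alone. Whether separate animals stand behind the 3 arrays of a group is not stated, and the p-values below cover only the array-to-array spread, which can be technical in part.

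Emp1 encodes epithelial membrane protein 1, a small protein that crosses the membrane several times and belongs to the family of the myelin protein PMP22. Aqp9 encodes an aquaglyceroporin, a channel for water, glycerol and other small neutral solutes that is known from liver and from leukocytes. Bhlhe40 encodes a basic helix-loop-helix repressor that binds E-box DNA, acts in the circadian clock and is induced when lymphocytes and macrophages are activated. Ahnak encodes a very large scaffold protein that binds the complex of annexin A2 and S100A10 at the inner face of the membrane. Saa3 encodes a serum amyloid A protein, an acute phase apolipoprotein that macrophages and fat make in mice during inflammation. STAT5 proteins are the transcription factors that JAK2 activates at the receptors for GM-CSF, IL-3 and related cytokines.

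Of the 5 genes, 4 were matched by symbol in a RefSeq table of promoters (build GRCm38.p6, 250 bases before to 50 after each start), which gave 6 windows. Bhlhe40 had no entry there. On both strands these motifs were searched: the STAT motif TTCNNNGAA, the E-box CACGTG, the general E-box CANNTG, the AP-1 motif TGANTCA, the C/EBP motif TTNNGNAA and the kappaB motif by name. Windows of 3 genes are printed because together they hold the STAT and AP-1 matches of the set and the most C/EBP matches. Capitals mark matches other than general E-boxes. They run 5′ to 3′ on the strand of the gene: Emp1 at chr6:135362681-135362980 on the plus strand, Saa3 at chr7:46715627-46715926 on the minus strand, and the second of 2 Aqp9 starts at chr9:71162584-71162883 on the minus strand.
Emp1: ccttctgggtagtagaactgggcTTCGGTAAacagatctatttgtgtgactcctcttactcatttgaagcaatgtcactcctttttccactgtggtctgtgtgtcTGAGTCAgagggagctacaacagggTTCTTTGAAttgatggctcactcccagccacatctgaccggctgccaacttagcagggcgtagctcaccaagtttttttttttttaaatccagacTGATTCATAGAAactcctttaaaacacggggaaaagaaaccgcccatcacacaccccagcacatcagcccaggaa
Saa3: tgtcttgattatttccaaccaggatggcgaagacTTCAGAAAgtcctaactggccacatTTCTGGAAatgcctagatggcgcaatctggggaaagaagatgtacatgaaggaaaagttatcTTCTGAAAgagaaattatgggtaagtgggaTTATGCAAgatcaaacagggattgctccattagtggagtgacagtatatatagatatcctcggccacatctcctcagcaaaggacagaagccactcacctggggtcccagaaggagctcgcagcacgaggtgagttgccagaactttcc
Aqp9: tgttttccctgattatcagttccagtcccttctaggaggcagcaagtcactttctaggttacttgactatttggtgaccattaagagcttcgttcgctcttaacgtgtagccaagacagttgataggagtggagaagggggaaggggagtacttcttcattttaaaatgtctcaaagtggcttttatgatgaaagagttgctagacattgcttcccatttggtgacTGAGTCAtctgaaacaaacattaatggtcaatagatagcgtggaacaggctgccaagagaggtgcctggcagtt

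The Emp1 window held 2 STAT matches, TTCTTTGAA starting at position -120 and TTCATAGAA at -22, counted from the transcription start. It also held 2 AP-1 matches, TGAGTCA at -145 and TGATTCA at -25. The AP-1 match at -25 overlaps the STAT match at -22, so both appear as 1 run of capitals. A C/EBP match in the Emp1 window, TTCGGTAA, started at -227. The Saa3 window held 4 C/EBP matches, TTCAGAAA at -216, TTCTGGAA at -191, TTCTGAAA at -129 and TTATGCAA at -99, and no STAT, AP-1, CACGTG or kappaB match. The printed Aqp9 window held 1 AP-1 match, TGAGTCA at -24. The other Aqp9 window held 1 C/EBP match, and neither the Ahnak window nor the second Emp1 window held a match other than a general E-box. Of 32851 promoters in the table, 8.30% held the STAT motif, 7.81% the AP-1 motif, 40.7% the C/EBP motif, 5.81% the kappaB motif, 7.15% CACGTG and 72.3% a general E-box. A match is only a description of these letters, since no binding was measured here.

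The labels were checked on the deleted genes. Stat5a averaged 36.0 ± 8.84 intensity units in treated knockout cells, 653 ± 254 in treated control cells, 60.6 ± 35.4 in untreated knockout cells and 962 ± 165 in untreated control cells (SD, n = 3 arrays each). Stat5b averaged 30.2 ± 29.4, 837 ± 481, 41.3 ± 15.0 and 1120 ± 535 units in the same groups and order. The highest knockout array of either gene, at 101 units for Stat5a and 60.5 for Stat5b, lay below the lowest control array, at 375 and 287 units. All 13 progenitor markers of granulocytes and macrophages on the array passed the filter. Their lowest readings over the 12 arrays ran from 178 units for Cebpa to 15309 for Mpo, and the other granule protein genes Elane, Prtn3 and Ctsg had lowest readings of 6216, 11692 and 14623. Of 7 B lineage markers 4 passed the filter, with highest readings of 873 units for Cd79b, 327 for Vpreb1, 153 for Igll1 and 96.3 for Pax5, and Cd79a, Ms4a1 and Ebf1 did not. Of 7 T and NK markers Nkg7, at 1169 to 9645 units, and Cd8a, at 18.7 to 179, passed, and Cd3d, Cd3e, Cd3g, Cd4 and Ncr1 did not. All 9 neutrophil markers passed, with highest readings from 222 units for Cxcr2 to 28215 for S100a8. So did all 5 mast cell and basophil markers, with highest readings from 761 units for Fcer1a to 4276 for Ms4a2.

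The arrays of date 2 stood apart in RNA quality. On its 4 arrays the Actb control sets had a 3′ to 5′ ratio of 20.8 to 266, against 1.14 to 2.05 on the other 8 arrays, and the Gapdh sets had 28.2 to 80.7 against 1.56 to 3.90. The Actb ratio of date 2 was 20.8 in treated knockout, 266 in treated control, 28.7 in untreated knockout and 59.5 in untreated control cells. For Gapdh these ratios were 28.2, 80.7, 42.9 and 59.9. On date 2 RNA quality and genotype thus cannot be told apart. Sex-linked genes set the dates and, later, the genotypes apart. Xist, which marks female cells, lay at 0.718 to 26.9 units on date 1 and at 2230 to 12143 on the other dates, so the mice of date 1 were others. The Y-linked Eif2s3y lay at 2169 to 2324 units on all 4 arrays of date 1. On date 2 it read 1802 in treated knockout, 2.97 in treated control, 763 in untreated knockout and 2.98 in untreated control cells, and on date 3 it read 1601, 783, 1833 and 777 in the same groups and order. On dates 2 and 3 the share of male RNA was thus higher in knockout than in control arrays, and sex and genotype cannot be told apart there. The knockout pair of date 2 also differed within itself, with Xist at 2230 units treated and 8845 untreated, beside Eif2s3y at 1802 and 763. In that pair sex and treatment cannot be told apart either. Members are therefore given array by array, in the order of dates 1, 2 and 3, with changes within each date. Because these are bulk samples, more RNA per cell and more cells of an expressing type cannot be told apart.

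Emp1 lies on chromosome 6 (135362550 to 135383173, GRCm38.p6). Its bright probe set 1416529_at read 811, 5428 and 8576 units in treated knockout cells and 1651, 3686 and 9693 in treated control cells. Untreated knockout cells read 1.56, 70.1 and 23.2 units, and untreated control cells 7.45, 3.88 and 1.54. Every treated array was far above every untreated one, with 811 as the lowest treated value and 70.1 as the highest untreated value. The 2 genotypes overlapped under treatment, date 1 being the lowest and date 3 the highest in each. As a description, the change on the log2(intensity + 13) scale was 6.58 ± 0.66 in knockout cells and 7.83 ± 0.66 in control cells (SE, limma, 3 arrays a group). limma fits 1 linear model per probe set and shares the spread over all of them. Untreated values sat near the constant of 13 added before the logarithm, so the size of this change depends on that constant. In control cells it was 9.69 with a constant of 1 and 5.73 with a constant of 71, and in knockout cells 7.68 and 5.14.

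The second Emp1 probe set, 1459171_at, was dim, and its treated and untreated readings lay closer together. It read 109, 130 and 150 units in treated knockout cells and 95.3, 50.7 and 210 in treated control cells, against 17.6, 24.8 and 10.6 in untreated knockout cells and 12.1, 83.8 and 52.2 in untreated control cells. Its knockout groups did not overlap, whereas on date 2 the treated control array, at 50.7 units, was below the untreated one, at 83.8. The log2 change was 2.23 ± 0.49 in knockout cells and 1.09 ± 0.49 in control cells (SE, limma), and the control value was 1.94 without date 2. The rank of Emp1 near the top of all genes rests on its bright probe set, since the second set was number 513 of the 21363 tested probe sets.

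Aqp9, on chromosome 9 (71110659 to 71167849), had a bright probe set, 1424011_at, that read 3543, 1804 and 3153 units in treated knockout cells and 6342, 1683 and 5397 in treated control cells. It read 87.0, 111 and 73.5 units in untreated knockout cells and 90.7, 70.6 and 132 in untreated control cells. The untreated arrays were close to each other in both genotypes, and the lowest treated array, at 1683, was far above the highest untreated one, at 132. Date 2 was the lowest of the treated arrays in both genotypes. The log2 change was 4.74 ± 0.40 in knockout cells and 5.17 ± 0.40 in control cells (SE, limma).

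The second Aqp9 probe set, 1421605_a_at, set date 2 apart. It read 241, 12.7 and 298 units in treated knockout cells and 382, 8.10 and 468 in treated control cells, against 40.1, 5.79 and 18.6 in untreated knockout cells and 5.68, 15.1 and 23.2 in untreated control cells. On dates 1 and 3 the treated arrays were far above the untreated ones. On date 2 the treated arrays, at 12.7 units in knockout and 8.10 in control cells, stayed within the range of untreated arrays, although the bright probe set was far higher in treated than in untreated cells on that date. Date 2 is the date with the high 3′ to 5′ ratios, and the part of RNA quality in this disagreement was not tested. Over all dates the log2 change was 2.00 ± 0.80 in knockout cells and 2.58 ± 0.80 in control cells (SE, limma). Without date 2 it was 2.78 in knockout cells and 4.07 in control cells.

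Bhlhe40 lies on chromosome 6 (108660629 to 108666925) and had 1 probe set, 1418025_at. It read 423, 1050 and 1954 units in treated knockout cells and 931, 1242 and 3273 in treated control cells. Untreated knockout cells read 51.7, 8.86 and 63.0 units, and untreated control cells 62.9, 10.98 and 87.5. Treated and untreated arrays did not overlap, and date 3 was the highest date in all 4 groups. The untreated arrays of date 2 were the dimmest in both genotypes. On the log2 scale Bhlhe40 changed by 4.35 ± 0.51 in knockout cells and 4.79 ± 0.51 in control cells (SE, limma).

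Ahnak, on chromosome 19 (8989284 to 9076935), had 1 probe set above the filter, 1452217_at. It read 2404, 6119 and 6792 units in treated knockout cells and 2286, 1719 and 7561 in treated control cells. In untreated cells it read 187, 166 and 444 units in the knockout and 165, 177 and 435 in the control, with date 3 the highest in each. Treated arrays lay at 1719 units or above and untreated arrays at 444 or below. Its log2 change was 4.20 ± 0.35 in knockout cells and 3.65 ± 0.35 in control cells (SE, limma). The other 3 Ahnak probe sets, 1428057_a_at, 1428058_at and 1429866_at, read between 1.15 and 108 units over the 12 arrays and each exceeded the filter on 1 array only. They did not move one way. Of them, 1428057_a_at averaged 63.8 ± 39.4 units in treated knockout and 48.2 ± 6.78 in treated control cells, against 15.9 ± 23.5 in untreated knockout and 7.17 ± 5.83 in untreated control cells (SD, n = 3 arrays each). By contrast, 1429866_at averaged 25.3 ± 25.0 and 40.9 ± 8.16 in treated knockout and control cells, against 40.6 ± 54.5 and 54.2 ± 7.69 in the untreated ones. For 1428058_at these means were 15.6 ± 10.7 and 31.6 ± 17.1 treated, against 35.4 ± 57.1 and 27.5 ± 37.3 untreated.

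Saa3, on chromosome 7 (46711998 to 46719615), had 1 probe set, 1450826_a_at. It read 10536, 2011 and 2422 units in treated knockout cells and 8922, 995 and 1869 in treated control cells. Untreated cells read 67.3, 75.4 and 74.7 units in the knockout and 74.8, 124 and 145 in the control. Treated and untreated arrays did not overlap, but the treated arrays of date 1 were several times brighter than those of the other dates in both genotypes. Date 1 was also the date whose arrays had almost no Xist signal, and the part of the mice in the Saa3 level was not tested. The log2 change was 5.45 ± 0.66 in knockout cells and 4.38 ± 0.66 in control cells (SE, limma), and 5.92 and 5.12 without date 2.

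**Figure D1:**
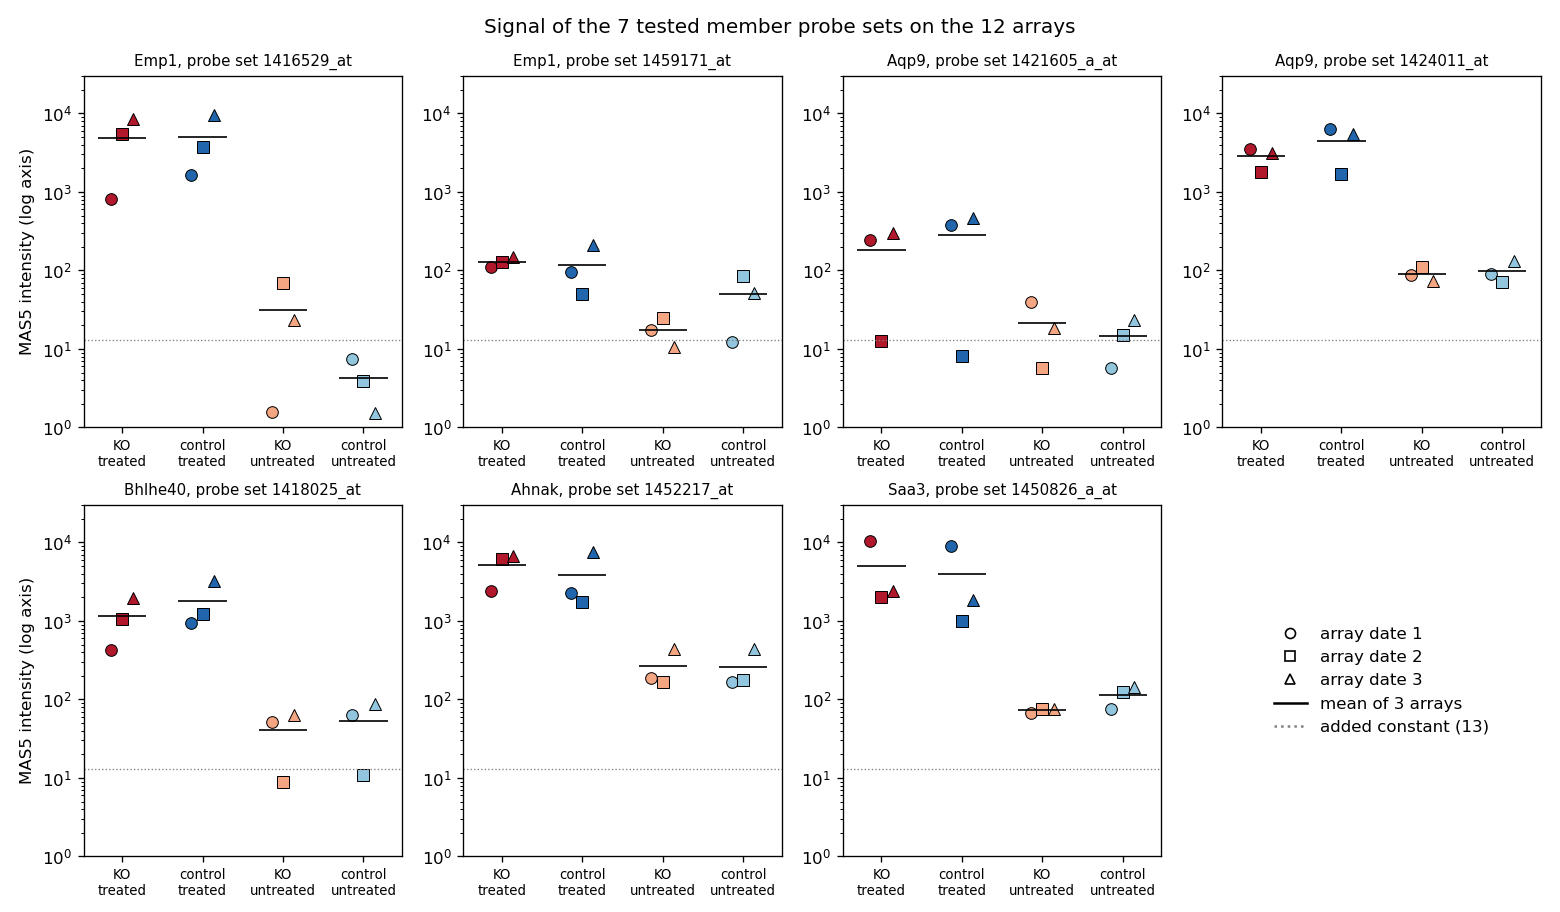
MAS5 intensity (log axis) of the 7 tested member probe sets on 12 arrays, by group, with a symbol per array date, a bar at the mean of 3 arrays and a dotted line at the added constant of 13. The bright sets of the 5 genes, chosen for large rises, separate treated from untreated arrays in both genotypes. The second Aqp9 set reads 12.7 and 8.10 units on the treated arrays of date 2.

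Within each date all 5 genes were higher in treated than in untreated cells in both genotypes on their brightest probe set. Their choice on large rises favours this, so it is no separate result. The dates differed in how much the genes rose. In knockout cells the log2 change of Emp1 was 5.82, 6.03 and 7.89 on dates 1, 2 and 3, and in control cells 6.35, 7.78 and 9.38. The largest change of Emp1 was thus on date 3 in both genotypes. For Saa3 the values were 7.04, 4.52 and 4.80 in knockout cells and 6.67, 2.88 and 3.58 in control cells, with date 1 the largest in both. Bhlhe40 changed by 2.76, 5.60 and 4.69 in knockout cells and 3.64, 5.71 and 5.03 in control cells, with date 1 the smallest. Aqp9 changed least on date 2, by 5.15, 3.87 and 5.19 in knockout cells and 5.94, 4.34 and 5.22 in control cells. For Ahnak date 2 split the genotypes, with 3.60, 5.10 and 3.90 in knockout cells and 3.69, 3.19 and 4.08 in control cells. The knockout pair of that date also differed in Xist and Eif2s3y, and its treated arrays differed between the genotypes in 3′ to 5′ ratio, as given above.

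**Figure D2:**
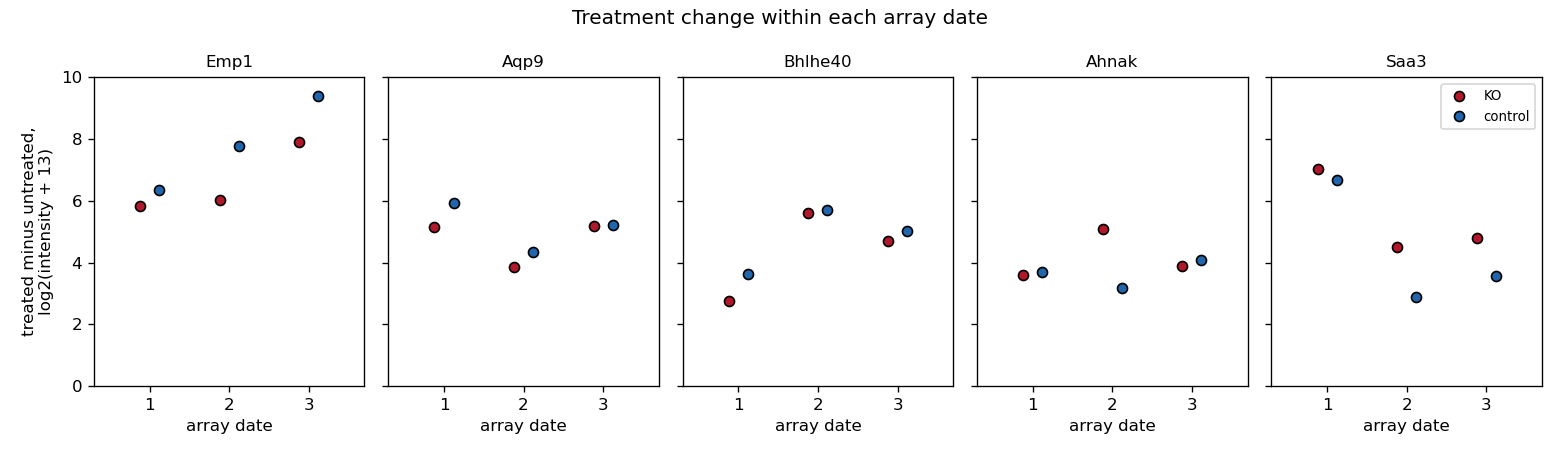
Treated minus untreated log2(intensity + 13) of the brightest probe set of each gene, per array date, in knockout (red) and control (blue) cells, 1 pair of arrays a point. All points lie above 0, which the choice of the genes on large rises favours. Saa3 is highest on date 1 in both genotypes, and the genotypes are furthest apart for Ahnak on date 2.

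Knockout and control cells were then compared under treatment, without treatment and in their responses. Eif2s3y was alike in both genotypes only on date 1, so the part of sex in the values of dates 2 and 3 was not tested. The part of RNA quality, which differed between the genotypes on date 2, was not tested either. The choice of the members on large rises favours high treated values in either genotype. It does not use the difference between the 2 responses if it rested on their average, but a choice on the response of 1 genotype would bear on it. In treated cells 13 of 21363 probe sets passed limma's test at an adjusted p under 0.05, which is 0.0609%, and 0 of the 7 members did. At an unadjusted p under 0.05 there were 1807 such probe sets, again with 0 members. In untreated cells 2 probe sets passed, those of Stat5a and Stat5b, which is 0.00936%, with 0 members, and 520 had an unadjusted p under 0.05, with 0 members. Both of these calls were lost in most fits that left out 1 array (adjusted p up to 0.384). For the difference between responses 0 probe sets passed, which is 0.0%, and 549 had an unadjusted p under 0.05, with 0 members. Cish, a feedback inhibitor of STAT5 signalling singled out after its values were seen, shows what did pass in treated cells. It averaged 869 ± 128 units in treated knockout and 5203 ± 314 in treated control cells (SD, n = 3 arrays each), a log2 difference of -2.57 ± 0.27 with an adjusted p of 0.0113 in limma. That call was lost without the date block (adjusted p 0.0975) and without any 1 of 5 treated arrays (adjusted p up to 0.130): control on dates 1 and 3, and knockout on dates 1, 2 and 3.

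Bhlhe40 and Aqp9 were lower on average in treated knockout cells than in treated control cells, but neither passed the test. For Bhlhe40 the log2 difference was -0.70 ± 0.51 with a 95% interval of -1.82 to 0.43 (limma adjusted p 0.654), and the ratio of knockout to control was 0.455, 0.846 and 0.597 on dates 1, 2 and 3. It was below 1 on 3 of 3 dates. Counts of dates with a common sign, here and below, are only a description, since their share over all probe sets was not taken. For the bright Aqp9 set the difference was -0.50 ± 0.40 with an interval of -1.38 to 0.38 (limma adjusted p 0.673), and the ratios were 0.559, 1.07 and 0.584.

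Saa3 and Ahnak were higher on average in treated knockout cells, also without passing the test. For Saa3 the difference was 0.54 ± 0.66 with an interval of -0.92 to 2.00 (limma adjusted p 0.787), and the ratios on dates 1, 2 and 3 were 1.18, 2.02 and 1.30, above 1 on 3 of 3 dates. For Ahnak the difference was 0.58 ± 0.35 with an interval of -0.20 to 1.36 (limma adjusted p 0.612), with ratios of 1.05, 3.56 and 0.898. Date 2, with the differently tagged knockout treated array, carried the Ahnak difference, which was -0.04 without that date. On date 2 the Actb 3′ to 5′ ratio was 266 in treated control and 20.8 in treated knockout cells. The part of RNA quality in the ratios of that date was not tested. Emp1 differed by -0.21 ± 0.66 with an interval of -1.67 to 1.25 (limma adjusted p 0.924), with ratios of 0.491, 1.47 and 0.885. The dim second sets differed by 0.30 ± 0.49 for Emp1 and -0.33 ± 0.80 for Aqp9 (limma adjusted p 0.846 and 0.900).

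Without treatment the member levels were low in both genotypes and no member passed, with an adjusted p of 0.999987 for each in limma. The log2 difference of knockout to control cells was 1.04 ± 0.66 for Emp1, -0.08 ± 0.40 for Aqp9, -0.26 ± 0.51 for Bhlhe40, 0.03 ± 0.35 for Ahnak and -0.54 ± 0.66 for Saa3. Bhlhe40 and Saa3 were lower in knockout cells on 3 of 3 dates. The Emp1 value compared readings of 1.56 to 70.1 units in knockout cells with 1.54 to 7.45 in control cells, near the level where MAS5 values are unstable.

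The difference between the responses, knockout minus control, was negative for 3 genes and positive for the other two on the bright sets, with an adjusted p of 0.999961 for each in limma. It was -1.25 ± 0.93 for Emp1 with a 95% interval of -3.31 to 0.81, and negative on 3 of 3 dates. This Emp1 value rests on untreated readings of 1.54 to 70.1 units and was -2.01 with a constant of 1 and -0.59 with a constant of 71. With 1 array left out it lay between -2.14 (untreated control, date 1) and -0.61 (treated knockout, date 1), and it was also reduced to -0.73 without the untreated knockout array of date 2, -0.79 and -0.69 without the treated or untreated control array of date 3. Bhlhe40, at -0.44 ± 0.72, and Aqp9, at -0.43 ± 0.56, had the smaller response in knockout cells on 3 of 3 dates. The Aqp9 value of date 3 was only -0.03, and the second Aqp9 set had the larger response in knockout cells on date 2, at 0.87. Saa3 had the larger response in knockout cells on 3 of 3 dates, at 1.07 ± 0.93 with an interval of -0.995 to 3.14. Ahnak, at 0.55 ± 0.50, was larger in knockout cells on 1 of 3 dates. The second Emp1 set, at 1.14 ± 0.70, ran opposite to the bright one.

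**Figure D3:**
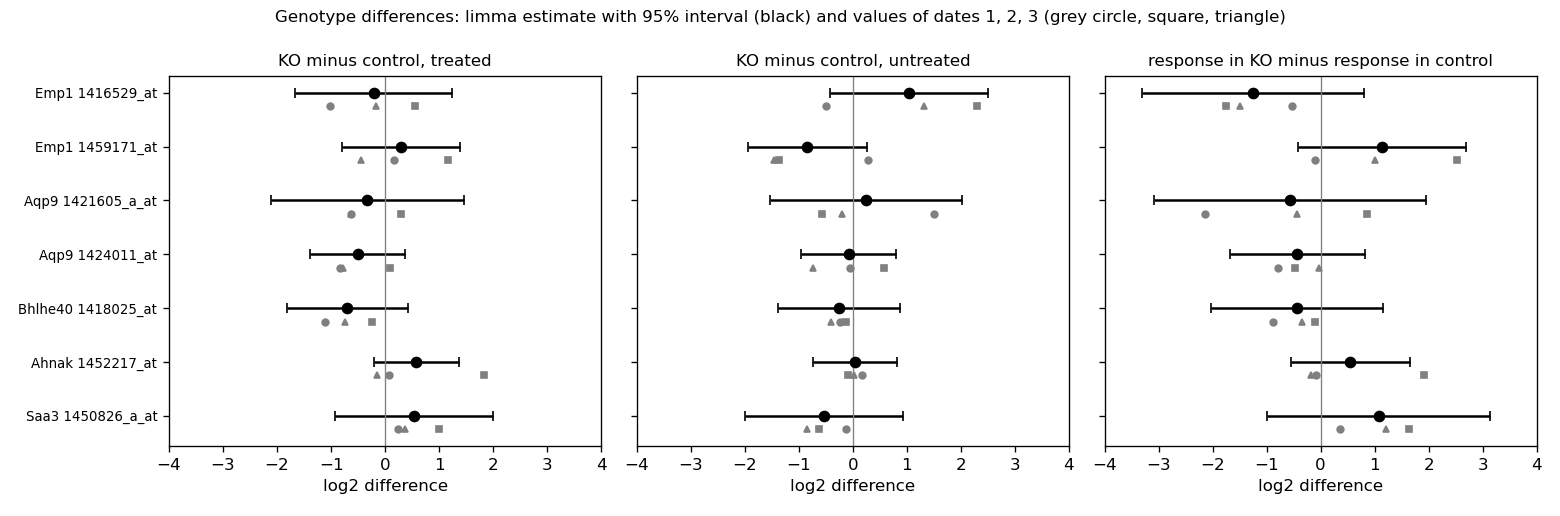
Log2 difference of knockout minus control cells for the 7 member probe sets, treated (left), untreated (middle) and as the difference between responses (right), with limma's estimate and 95% interval in black and the value of each array date in grey. Every interval spans 0, and for Ahnak under treatment date 2 lies far from the other dates.

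Over the 12 arrays, after the mean of each date was subtracted, the log2 values of the 5 bright sets correlated with each other at a Pearson r of 0.865 for Bhlhe40 and Saa3 to 0.968 for Emp1 and Aqp9, over 10 pairs. These points share the treatment, for which the genes were chosen, so the values only describe the common step. The genes most like each member by the same measure were also genes with a treated and an untreated level. For Ahnak they were Cdkn1a (r 0.995), which encodes the cell cycle inhibitor p21, Litaf (0.993) and Nupr1 (0.988). For Bhlhe40 they were Plek (0.991), Csf2rb (0.991), which encodes the common beta chain of the receptors for GM-CSF, IL-3 and IL-5, and Basp1 (0.990). For Aqp9 they were Zc3h12a (0.992), which encodes the RNase regnase-1, Susd6 (0.991) and Bcat1 (0.991). For Saa3 they were the chemokine gene Cxcl10 (0.991), Slc7a3 (0.990), an amino acid transporter gene, and Cd14 (0.990), the gene of a lipopolysaccharide co-receptor. For Emp1 they were Slfn10-ps (0.982), Dsn1 (0.979) and Fam76a (0.977). Cxcl10 shared with Saa3 a wide spread over the treated arrays, at 6805 ± 5531 units in treated knockout and 5639 ± 6158 in treated control cells, against 88.1 ± 28.8 in untreated knockout and 137 ± 91.4 in untreated control cells (SD, n = 3 arrays each). Csf2rb averaged 7660 ± 1460 units in treated knockout and 9717 ± 760 in treated control cells, against 2848 ± 1418 in untreated knockout and 3123 ± 851 in untreated control cells (SD, n = 3 arrays each).

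For each member a list of related genes was compared between treated and untreated cells, with 1 probe set a gene. Over 11815 genes, with p-values adjusted over all 21363 probe sets, 684 were higher in treated knockout cells (5.79%) and 407 lower (3.44%), and 393 were higher in treated control cells (3.33%) and 214 lower (1.81%), at an adjusted p under 0.05 in limma. No gene of the 5 lists passed in a comparison of the genotypes. The calls below are those of the fit with array date as a block. The lists were written with earlier results of these data known, so their counts, medians and p-values are not independent of those results.

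No other gene of the list around Emp1 passed the test on treatment. The list holds the EMP and PMP22 family and other proteins that cross the membrane several times, such as Mal. Of 10 on the array 5 were tested, and 0 passed in either genotype by limma. Emp3, for another epithelial membrane protein, averaged 7180 ± 1529 units in treated knockout and 3909 ± 2659 in treated control cells, against 3897 ± 903 in untreated knockout and 2713 ± 923 in untreated control cells (SD, n = 3 arrays each). Its log2 change was 0.88 ± 0.41 in knockout cells (limma adjusted p 0.213) and 0.31 ± 0.41 in control cells (0.723). Nkg7, a granule membrane gene of cytotoxic and myeloid cells, had a log2 change of -1.47 ± 0.45 in knockout and -1.42 ± 0.45 in control cells (limma adjusted p 0.0711 and 0.102). The remaining 3 changed by 0.02 for Perp, -0.31 for Mal and 0.50 for Cldnd1 in knockout cells, and by -0.11, 0.51 and 0.76 in control cells. Emp2 and Pmp22 were below the filter, with highest readings of 121 and 93.3 units.

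Among the other aquaporins none passed the test on treatment. Of the 25 other genes for aquaporins and glycerol handling on the array 19 were tested, and 2 rose and 1 fell in knockout cells, against 2 and 0 in control cells. The other aquaporins reached at most 351 units (Aqp11), and Aqp3, Aqp4, Aqp5, Aqp7, Aqp12 and Mip were below the filter. Lpl, which encodes the lipoprotein lipase that releases fatty acids from lipoproteins, averaged 20285 ± 9302 units in treated knockout and 17338 ± 7779 in treated control cells, against 562 ± 189 in untreated knockout and 432 ± 230 in untreated control cells (SD, n = 3 arrays each). Its log2 change was 5.11 ± 0.44 in knockout and 5.31 ± 0.44 in control cells (limma adjusted p 0.000388 and 0.000334). Gpat3, for an acyltransferase that acts on glycerol 3-phosphate, rose by 4.13 ± 0.56 and 3.07 ± 0.56 (limma adjusted p 0.00281 and 0.0144). The control call of Gpat3 was lost without the date block (adjusted p 0.0665) and without any 1 of 3 control arrays, untreated on dates 2 and 3 and treated on date 3 (adjusted p up to 0.0806). Slc16a1, for the monocarboxylate transporter MCT1, had a log2 change of -1.59 ± 0.29 in knockout cells (limma adjusted p 0.0106, and 0.0719 without the date block) and -0.89 ± 0.29 in control cells (0.110). The difference between the genotypes in Slc16a1 did not pass.

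For the circadian clock the calls were close to the share over all genes. Of the 21 other genes of this list on the array 16 were tested, and 1 rose and 0 fell in knockout cells, against 1 and 1 in control cells. Bhlhe41, the closest relative of Bhlhe40, was below the filter with a highest reading of 72.1 units. Id2, for a helix-loop-helix protein without a DNA-binding region, rose by 2.32 ± 0.33 in knockout and 1.38 ± 0.33 in control cells (limma adjusted p 0.00353 and 0.0443). Per3, a period gene of the clock, fell by 2.21 in control cells (SE 0.53, limma adjusted p 0.0445), with a log2 change of -1.25 ± 0.53 in knockout cells (0.176). Both control calls depended on single arrays. The Id2 call was lost without any 1 of 8 of the 12 arrays, all 6 control arrays and both knockout arrays of date 3, with an adjusted p up to 0.160. The Per3 call was lost without any 1 of 9 arrays, all but the treated control array of date 1 and both knockout arrays of date 2, with an adjusted p up to 0.171. Without the date block the adjusted p was 0.0590 for Id2 in knockout, 0.391 for Id2 in control and 0.304 for Per3 in control cells.

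In the list of AHNAK partners, annexins and S100 genes several members rose. Of 21 genes other than Ahnak on the array 20 were tested, and 7 rose and 1 fell in knockout cells, against 3 and 0 in control cells. The median log2 change over the list was 0.89 in knockout and 0.66 in control cells, against -0.02 and -0.04 over all genes. Genes that were dim in untreated cells, such as Lmna and Ahnak2, passed the filter through treated arrays, which favours a positive median. Lmna, for the nuclear lamins A and C, rose by 4.94 ± 0.58 in knockout and 3.85 ± 0.58 in control cells (limma adjusted p 0.00133 and 0.00644). The calcium-binding S100a4 rose by 4.25 ± 0.39 and 3.50 ± 0.39 (limma adjusted p 0.000528 and 0.0015), and S100a6 by 2.27 ± 0.24 and 2.73 ± 0.24 (0.000945 and 0.000426). S100a4 was uneven over the dates, at 3316 ± 4013 units in treated knockout and 2391 ± 2643 in treated control cells, against 103 ± 78.7 in untreated knockout and 250 ± 345 in untreated control cells (SD, n = 3 arrays each). Without the date block S100a4 and S100a6 lost their calls, with adjusted p-values of 0.142 and 0.166 in knockout and 0.336 and 0.131 in control cells, and Lmna lost its control call (0.0567).

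Ahnak2, the relative of Ahnak, rose by 4.13 ± 0.67 in knockout cells (limma adjusted p 0.00628), with 2.38 ± 0.67 in control cells (0.0732). The direct partners S100a10 and Anxa2 did not pass on the probe sets used: S100a10 changed by 0.78 ± 0.30 in knockout and 0.86 ± 0.30 in control cells (limma adjusted p 0.143 and 0.134), and Anxa2 by 1.11 ± 0.32 and 0.71 ± 0.32 (0.0577 and 0.241). The S100a10 set used had group means of 776 to 1806 units. The highest reading over its 3 probe sets was 36602, so a brighter S100a10 set exists that is not reported here. Anxa4, Anxa5, Anxa7 and Plcg1 are named after their values were seen, as the rest of the knockout calls. In knockout cells Anxa4 rose by 1.49 ± 0.35, Anxa7 by 1.24 ± 0.25 and Anxa5 by 1.16 ± 0.25, and Plcg1 fell by 0.94 (SE 0.24), with limma adjusted p-values of 0.0288, 0.0153, 0.0196 and 0.0408. All 4 calls were lost without the date block (adjusted p 0.113, 0.0855, 0.403 and 0.284). The calls of Anxa4 and Anxa5 were lost without either knockout array of date 2 or of date 3 (adjusted p up to 0.111 and 0.0777). The Anxa7 call was lost without either knockout array of date 2 or the untreated one of date 3 (up to 0.0615). The Plcg1 call was lost without any 1 of 11 arrays, all but the treated control array of date 2 (up to 0.129).

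Saa3 was the only serum amyloid A gene above the filter: Saa1, Saa2 and Saa4 reached at most 30.5, 54.6 and 118 units. Of 31 other serum amyloid A and acute phase genes on the array 16 were tested, and 4 rose and 1 fell in each genotype. The genes that rose, given below, encode a cytokine, receptors and a transcription factor. The acute phase protein genes Hp, Lcn2, Ptx3 and Cp, named after their values were seen, did not pass in either genotype. Their log2 changes were -0.35, 1.503, 3.437 and 2.576 in knockout cells (limma adjusted p 0.698, 0.168, 0.12 and 0.123). In control cells these changes were -0.609, 0.159, 4.402 and 2.939 (limma adjusted p 0.505, 0.916, 0.0746 and 0.107). The median log2 change over the list was 1.85 in knockout and 1.82 in control cells, against -0.02 and -0.04 over all genes. Some tested genes were dim in untreated cells and passed the filter through treated arrays, which favours a positive median. Ptx3, for example, averaged 28.2 and 40.7 units in untreated knockout and control cells, against 821 and 2766 in treated ones. The median is therefore only a description. Tnf, the tumour necrosis factor gene, rose by 4.44 ± 0.59 in knockout and 3.46 ± 0.59 in control cells (limma adjusted p 0.00269 and 0.0116). Cd14 rose by 3.47 ± 0.46 and 2.63 ± 0.46 (limma adjusted p 0.00267 and 0.0127), at 8526 ± 4328 units in treated knockout and 5968 ± 3721 in treated control cells, against 716 ± 303 in untreated knockout and 886 ± 499 in untreated control cells (SD, n = 3 arrays each). The genes for 2 Toll-like receptors passed in 1 genotype each. Tlr2 rose by 3.00 ± 0.63 in knockout cells (limma adjusted p 0.0191), with 1.96 ± 0.63 in control cells (0.108). Tlr4 rose by 2.19 ± 0.44 in control cells (limma adjusted p 0.0221), with 1.40 ± 0.44 in knockout cells (0.0780). Neither gene passed for the difference between responses. The liver acute phase genes Orm1, Orm2, Crp, Apcs, Fga, Fgb and Fgg were below the filter.

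The remaining calls of this list, named after their values were seen, were Cebpb and Lbp. Cebpb, for the transcription factor C/EBP beta, rose by 1.56 ± 0.30 in knockout and 1.68 ± 0.30 in control cells (limma adjusted p 0.0128 for both). Lbp, for the lipopolysaccharide-binding protein, fell by 1.08 in knockout and 1.06 in control cells (SE 0.24 each, limma adjusted p 0.0225 and 0.0344). Several calls of the list rested on single arrays. The control calls of Tnf (adjusted p up to 0.0669) and Cd14 (0.0686) were lost without either control array of date 1 or the treated one of date 3, and that of Cd14 also without the untreated one of date 3. The Tlr4 control call (up to 0.112) was lost without the untreated control array of date 1, the treated one of date 2 or either one of date 3. The Tlr2 knockout call (up to 0.0955) was lost without the untreated knockout array of date 1, the treated one of date 2 or either one of date 3. The Cebpb calls were lost without the untreated knockout array of date 2 in knockout cells (0.0559), and without the untreated control array of date 1 or either control array of date 3 in control cells (up to 0.0686). The Lbp call in knockout cells was lost without the untreated knockout array of date 1 or either knockout array of date 2 or 3 (up to 0.0866). In control cells it was lost without any 1 of 9 arrays, all but the treated knockout array of date 1 and both knockout arrays of date 2 (up to 0.145). Without the date block the calls of Tnf, Cd14, Tlr4, Cebpb and Lbp in control cells were lost (adjusted p 0.163, 0.114, 0.0638, 0.0510 and 0.889), as were those of Tlr2 and Lbp in knockout cells (0.0559 and 0.785).

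**Figure D4:**
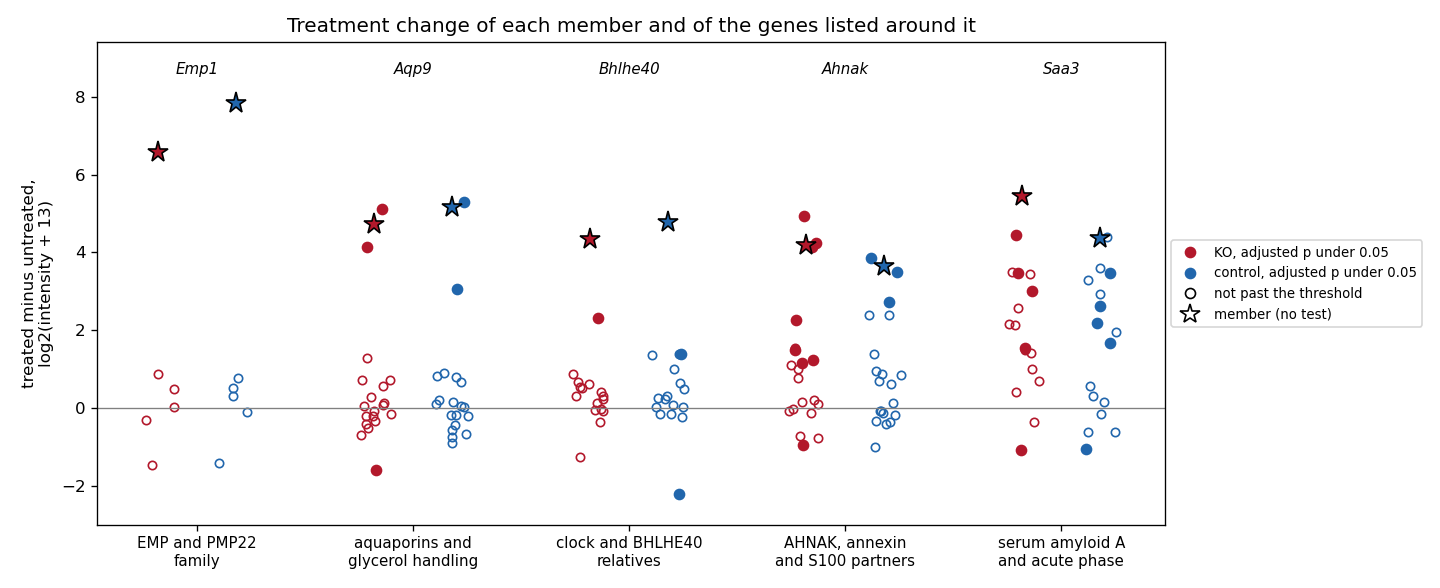
Treated minus untreated log2(intensity + 13) of each member (star) and of the tested genes of the list around it (circles, filled where limma's adjusted p is under 0.05), in knockout (red, left) and control (blue, right) cells. Emp1 lies far above its list, and Aqp9 has Lpl beside it. The acute phase list, which also holds cytokine and receptor genes, has a median of 1.85 in knockout and 1.82 in control cells. Some of its genes passed the filter through treated arrays, which favours a positive median.

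Markers of other cell types were set beside these rises. Of 8 tested monocyte and macrophage markers Cd14 rose and F13a1 fell in both genotypes, and Vcan rose in control cells. Their summed intensity was 26960 to 38900 units in treated knockout, 22785 to 49631 in treated control, 19785 to 35988 in untreated knockout and 18598 to 37128 in untreated control cells. The groups overlapped in these ranges, which pool the array dates. Csf1r, which is also on the progenitor list, was the brightest of these markers, at 6440 to 40377 units. Of 5 tested dendritic cell markers Cd83 rose in both genotypes and Batf3 in control cells, with sums of 732 to 2019, 1285 to 2242, 347 to 1390 and 336 to 1144 units in the same groups and order. The 13 progenitor markers summed to 93028 to 165085 units in treated knockout, 90378 to 267304 in treated control, 99624 to 224634 in untreated knockout and 102326 to 221750 in untreated control cells, and Irf8 fell in control cells by 1.39 (SE 0.32, limma adjusted p 0.0371). The 4 tested B lineage markers summed to 380 to 730 units in treated knockout, 324 to 421 in treated control, 777 to 1150 in untreated knockout and 605 to 1027 in untreated control cells, lower in treated cells without overlap within each genotype, and 0 of them passed by limma. They did not move one way in knockout cells, with log2 changes of -0.64 for Cd79b, -1.57 for Vpreb1, 0.11 for Pax5 and 0.29 for Igll1. The T and NK list, of which 2 of 7 markers were tested (Nkg7 and Cd8a), was lower on every treated array, with sums of 1258 to 5713 in treated knockout, 1444 to 4792 in treated control, 8112 to 9757 in untreated knockout and 7832 to 8792 in untreated control cells, and 0 of its markers passed by limma. These sums are mostly Nkg7, at 1169 to 9645 units against 18.7 to 179 for Cd8a, and Nkg7 is also a gene of myeloid cells. The 9 neutrophil markers summed to 12408 to 45716 units in treated knockout and 12016 to 26826 in treated control cells. In untreated cells their sums were 7956 to 28390 in the knockout and 7060 to 67262 in the control, and 0 passed by limma. Among tested markers of erythroid cells, megakaryocytes, mast cells, eosinophils, stroma and epithelium only the erythroid Car1 passed, lower in treated control cells (limma adjusted p 0.0344). The part of changes in cell make-up in the rises of the 5 genes was not tested.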

How the data were processed

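Messenger RNA of 12 mouse samples was measured on single-colour Affymetrix arrays. The authors deposited 1 linear intensity for each probe set, which per the submitters' processing notes is a MAS5 value, with version, scaling target and masking not given in the sources used here. The deposited intensities were already scaled: array means trimmed by 2% at both ends were 500.003 to 500.004. Dim MAS5 values are unstable because a mismatch signal is subtracted. Precision is limited by the number of arrays, and an array has no depth.

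Probe sets were named through GEO's platform annotation, and 34945 with 1 symbol were kept. The filter on dim values required more than 70.5495 units, the overall median, on 3 or more of the 12 arrays, and 21363 probe sets passed. Values were taken as log2(intensity + 13), where 13 is the rounded 20th percentile of all values, so changes of dim genes are understated. The groups were fitted together in limma 3.58.1 (R 4.3.3), with the array date as a block (6 residual and 4.21 prior degrees of freedom) and Benjamini-Hochberg adjustment over all tested probe sets. The median half-width of a 95% interval was 0.684, and 0.967 for the difference between responses. The script was tested on simulated data. The block rests on the dates in the titles: deviations from group means correlated at 0.367 to 0.750 for 18 pairs of arrays of the same date and at -0.680 to 0.435 for 36 pairs of different dates. Coordinates and promoters come from RefSeq tables of build GRCm38.p6, and no genome was used. Drawing used matplotlib 3.10.9 in Python 3.11.15.

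The members and the gene lists were chosen with earlier results of these data known, so the treatment changes of members carry no test. Named were all probe sets of the members, Stat5a and Stat5b, up to 4 genes per list with the largest mean treatment change among those called in either genotype, all genes of a list with 5 or fewer measured, and the 3 genes most correlated with each member. Of several probe sets of a listed gene, the tested one with the highest mean log2 value was used, sets marked as cross-hybridizing only if no other was left. Alternatives were the fit without the block, without date 2, without each array, constants of 1 and 71, no filter, quantile normalization, median centring, 1 probe set per gene, only the 2 groups compared, and an intensity trend in eBayes.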

Additional observations from a re-analysis of the deposited data

How the results depend on the processing

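No member passed for knockout against control, treated or untreated, or for the difference between responses, in the main fit or in any of the 22 alternatives (21 for the difference), with lowest adjusted p-values of 0.447, 0.959 and 0.923. Their signs were less firm, with reversals that never passed. Without array date 2 the treated difference was -0.14 for Emp1 1459171_at and -0.041 for Ahnak, and the difference between responses was -0.14 for Ahnak. With quantile normalization the untreated difference of Aqp9 1424011_at was 0.051. With each array left out in turn, treated differences ranged from -0.70 to 0.43 for Emp1 1416529_at, -0.33 to 0.75 for Emp1 1459171_at, -1.29 to 0.22 for Aqp9 1421605_a_at and -0.022 to 1.29 for Saa3. Untreated differences ranged from -0.52 to 1.27 for Aqp9 1421605_a_at, -0.57 to 0.23 for Aqp9 1424011_at, -0.72 to 0.19 for Bhlhe40 and -0.10 to 0.15 for Ahnak. The difference between responses ranged from -1.60 to 0.20 for Aqp9 1421605_a_at, -0.91 to 0.070 for Aqp9 1424011_at and -0.96 to 0.16 for Bhlhe40. Treatment changes of the 7 member sets kept their sign in every alternative and moved beyond the spread between dates in 5 values, all of Emp1 with another constant. Of the list genes, 17 passed for treatment in knockout cells and 12 in control cells. Without the replicate block, that is without the pairing by date, 7 passed in knockout and 1 in control cells, so the pairing by date bears on most of these calls. Without date 2, 19 passed in control cells, and with only the 2 groups compared, which leaves fewer residual degrees of freedom, 5 did. With each array left out the counts ranged from 11 to 20 in knockout cells and from 4 to 16 in control cells. Of 34 called values of named genes other than members, 24 lost their call without the block and 5 without date 2: Id2 in control cells, and Anxa4, Anxa5, Plcg1 and Lbp in knockout cells. Among uncalled values, Perp in knockout cells was -0.063 without date 2, -0.028 with quantile normalization and -0.0802 with median centring, and Mal in knockout cells was 0.51 without date 2. With each array left out, Perp ranged from -0.18 to 0.20 in knockout and -0.57 to 0.22 in control cells, Mal from -0.85 to 0.37 in knockout cells and Emp3 from -0.076 to 0.84 in control cells. Over all probe sets, 13 passed for knockout against control under treatment, 28 with a constant of 71, 0 with a constant of 1 and 2 without the block, and from 0 to 11 with an array left out. For the difference between responses 0 passed, but 3 did with a constant of 71, 2 with median centring and 1 without the treated control array of date 1, none of them a member. The difference between responses of Emp1 1416529_at ranged from -2.14 to -0.59 over the alternatives. The causes of these shifts were not tested. Signal over background limits what can be said of the untreated levels of Emp1 and the second Aqp9 set.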
